A study of Mus musculus with 21 samples.

Results

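The neuronal immediate early genes Fos, Fosb, Junb, Egr1, Egr2, Arc, Npas4, Nr4a1, Ier2 and Dusp1 were examined in tissue labeled neocortex of rNLS8 mice, a model of TDP-43 proteinopathy. These 10 genes were taken by symbol from the 48474 rows of the count table, and all 10 were among the 18248 genes that passed the filter on low counts.

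Immediate early genes are transcribed within minutes of a stimulus and need no newly made protein to start. In neurons, synaptic activity and calcium entry activate CREB, serum response factor and MEF2 through calcium/calmodulin-dependent kinases and the ERK pathway, and the transcripts that follow are short-lived. Their level in cortex is therefore widely used as a readout of recent neuronal activity, and several of them encode transcription factors that switch on later response genes.

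The deposited libraries came from 11 wild-type and 10 rNLS8 mice. The rNLS8 mice were bigenic, carrying NEFH-tTA line 8, whose neurofilament promoter restricts the driver largely to neurons, and tetO-hTDP-43ΔNLS line 4, which encodes human TDP-43 without its nuclear localization signal. The animals labeled wild-type were monogenic littermates, so they lacked the combination of driver and responder rather than every transgene. Every mouse, control or not, had been injected into the cerebral ventricle at 17 to 19 weeks of age with 10 µL that held 350 µg of non-targeting antisense oligonucleotide. The diet contained doxycycline at 200 mg/kg, which keeps the transgene off, until 2 weeks after the injection, and tissue was taken 3 weeks after its withdrawal. Cohort A, batch A in the labels, comprised 4 wild-type and 3 rNLS8 mice and cohort B comprised 7 of each genotype. The sources differ on the tissue, which is neocortex in the labels, brain cortex in the study's methods and hippocampus in a legend. Summed normalized counts of the dentate gyrus markers Prox1, Dsp and C1ql2 were 309 to 888 in wild-type and 254 to 618 in rNLS8 mice. The labels carry a separate mouse number for each library, but neither the sex nor the time of day at which tissue was taken.

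Total counts per mouse ranged from 20700912 to 22263809, at which 3 counts correspond to 0.135 to 0.145 CPM (counts scaled to the total of the library). Tardbp, the mouse gene for TDP-43, was higher in rNLS8 mice by 0.62 on the log2 scale (SE 0.071, adjusted p = 1.50e-07, quasi-likelihood test of edgeR with Benjamini-Hochberg adjustment), and 9 of 10 rNLS8 mice exceeded every wild-type mouse. In cohort A it had 2363 to 3091 normalized counts in rNLS8 and 2253 to 2650 in wild-type mice, with rNLS8 mouse T61340 lowest of its genotype and within the wild-type range. In cohort B it had 4405 to 5053 and 2507 to 2827, so all 3 rNLS8 mice of cohort A lay below all those of cohort B. The transgene is human, so these counts check the genotype labels only indirectly. All 6 neuron markers were detected, and their summed normalized counts lay between 82665 and 105349 in rNLS8 and between 113574 and 144651 in wild-type mice, without overlap. Of the 6, Snap25, Syt1 and Map2 were lower and Rbfox3, Tubb3 and Eno2 did not pass the test. Over all genes tested, 21.7% were lower and 23% were higher. Of 6 microglia markers, 4 were higher and 1 was lower, with summed normalized counts of 7014 to 9556 in rNLS8 and 6705 to 7631 in wild-type mice. In bulk tissue, fewer cells of a type and less RNA per cell cannot be told apart.

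The proximal promoters were searched for activity-responsive elements, and elements farther from the start site were not covered. RefSeq windows on GRCm38.p6 were found for 7 of the 10 genes, and not for Arc, Egr1 and Ier2. The 250 bases before the start site were searched on both strands. The motifs were TGACG, the core of the cAMP response element (CRE) that CREB binds, and the full element TGACGTCA, which contains that core. An AP-1 site was searched as TGANTCA, an element of the EGR factors as GCGNGGGCG, and a TATA box by the letters TATAAA. The CArG box of serum response factor was searched as well. Capitals mark every match in the 6 windows printed, of which the first 3 belong to genes that fell in rNLS8 mice and the last 3 to genes that did not pass the test. The window of Npas4 lies within an annotated exon of a longer transcript and is not printed. For the same reason the printed sequences of Fosb and Dusp1 end 6 and 47 bases before the start site. Positions are counted from the RefSeq start site.
Egr2, chr10:67537619-67537868, plus strand: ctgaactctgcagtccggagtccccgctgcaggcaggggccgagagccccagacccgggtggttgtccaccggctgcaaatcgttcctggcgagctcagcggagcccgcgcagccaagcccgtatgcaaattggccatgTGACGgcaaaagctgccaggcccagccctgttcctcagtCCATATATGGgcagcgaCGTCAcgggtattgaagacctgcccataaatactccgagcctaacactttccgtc
Fos, chr12:85473640-85473889, plus strand: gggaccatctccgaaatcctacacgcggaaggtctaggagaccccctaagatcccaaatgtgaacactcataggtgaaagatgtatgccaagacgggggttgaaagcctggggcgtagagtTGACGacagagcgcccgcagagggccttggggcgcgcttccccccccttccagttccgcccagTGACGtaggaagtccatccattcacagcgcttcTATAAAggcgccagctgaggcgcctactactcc
Junb, chr8:84978749-84978998, minus strand: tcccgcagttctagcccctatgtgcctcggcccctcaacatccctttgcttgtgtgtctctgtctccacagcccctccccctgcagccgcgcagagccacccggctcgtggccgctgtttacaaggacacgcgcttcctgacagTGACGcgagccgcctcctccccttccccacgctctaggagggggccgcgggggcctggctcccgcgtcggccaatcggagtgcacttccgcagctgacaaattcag
Fosb, chr7:19310052-19310295, minus strand: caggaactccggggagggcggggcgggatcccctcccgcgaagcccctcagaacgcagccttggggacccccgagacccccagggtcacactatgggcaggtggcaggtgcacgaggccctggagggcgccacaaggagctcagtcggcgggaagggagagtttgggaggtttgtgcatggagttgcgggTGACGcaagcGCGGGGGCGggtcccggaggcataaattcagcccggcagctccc
Nr4a1, chr15:101266596-101266845, plus strand: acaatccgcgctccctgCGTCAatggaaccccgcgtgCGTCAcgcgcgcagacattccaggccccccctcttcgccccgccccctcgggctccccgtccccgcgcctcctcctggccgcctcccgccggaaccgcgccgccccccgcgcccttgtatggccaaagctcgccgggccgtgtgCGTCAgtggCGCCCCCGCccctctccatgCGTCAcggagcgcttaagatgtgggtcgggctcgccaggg
Dusp1, chr17:26508520-26508722, minus strand: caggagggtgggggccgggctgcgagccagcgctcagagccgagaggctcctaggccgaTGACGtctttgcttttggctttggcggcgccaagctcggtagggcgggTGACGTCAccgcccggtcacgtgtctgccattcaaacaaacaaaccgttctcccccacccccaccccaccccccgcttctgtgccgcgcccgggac

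Every one of the 7 windows held TGACG on either strand, compared with 17.8% of 32851 mouse windows of 250 bases. For Fosb and Dusp1 all 250 bases were searched as well, although 244 and 203 are printed. Egr2 carried the CArG box CCATATATGG from -72 to -63, between a TGACG at -111 and its reverse complement at -55, and 1.47% of windows held a CArG box. In Fos, TGACG began at -129 and at -66, and a TATA box lay at -33, a motif present in 12.4% of windows. Nr4a1 had 4 copies of CGTCA, the reverse complement of TGACG, and Npas4 had CGTCA at -179 and TGACG at -169. Dusp1 was the gene with a full CRE, at -143, which 1.55% of windows held. EGR sites were found in Fosb at -50 and in Nr4a1 at -60, compared with 4.7% of windows, and no window held TGANTCA, which 6.75% did. Elements of the CREB type thus occurred in the windows of genes that fell and of genes that did not pass the test. These matches are letters in a short window, and occupancy was not measured.

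Of the 10 genes, 7 were lower in rNLS8 mice, 0 were higher and 3 did not pass the test. Egr2 and Arc differed most, with 26.7% and 33.6% of the wild-type level in the fit with cohort as covariate, followed by Egr1 (46.8%), Fos (51.1%), Npas4 (52.7%), Ier2 (68.7%) and Junb (69.0%). Dusp1, Nr4a1 and Fosb did not pass the test. The background was high in this comparison, since 21.7% of all genes tested were lower and 23% were higher. The size of the changes was less common. The median log2 fold change was -0.73 over the 10 genes and -0.0007 over all genes tested, and a log2 fold change of -1 or lower was seen in 0.526% of genes, among them Egr2, Arc and Egr1. In the order of all 18248 genes from the lowest log2 fold change, Egr2 was at place 4, Arc at 11, Egr1 at 69, Fos at 107 and Npas4 at 129. These places are by size alone and do not rank the evidence. The 10 genes also varied more between mice of the same genotype and cohort, with a median residual SD of 0.53 log2 units against 0.17 for all genes tested. Large fold changes are more easily reached with such a spread.

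**Figure D1:**
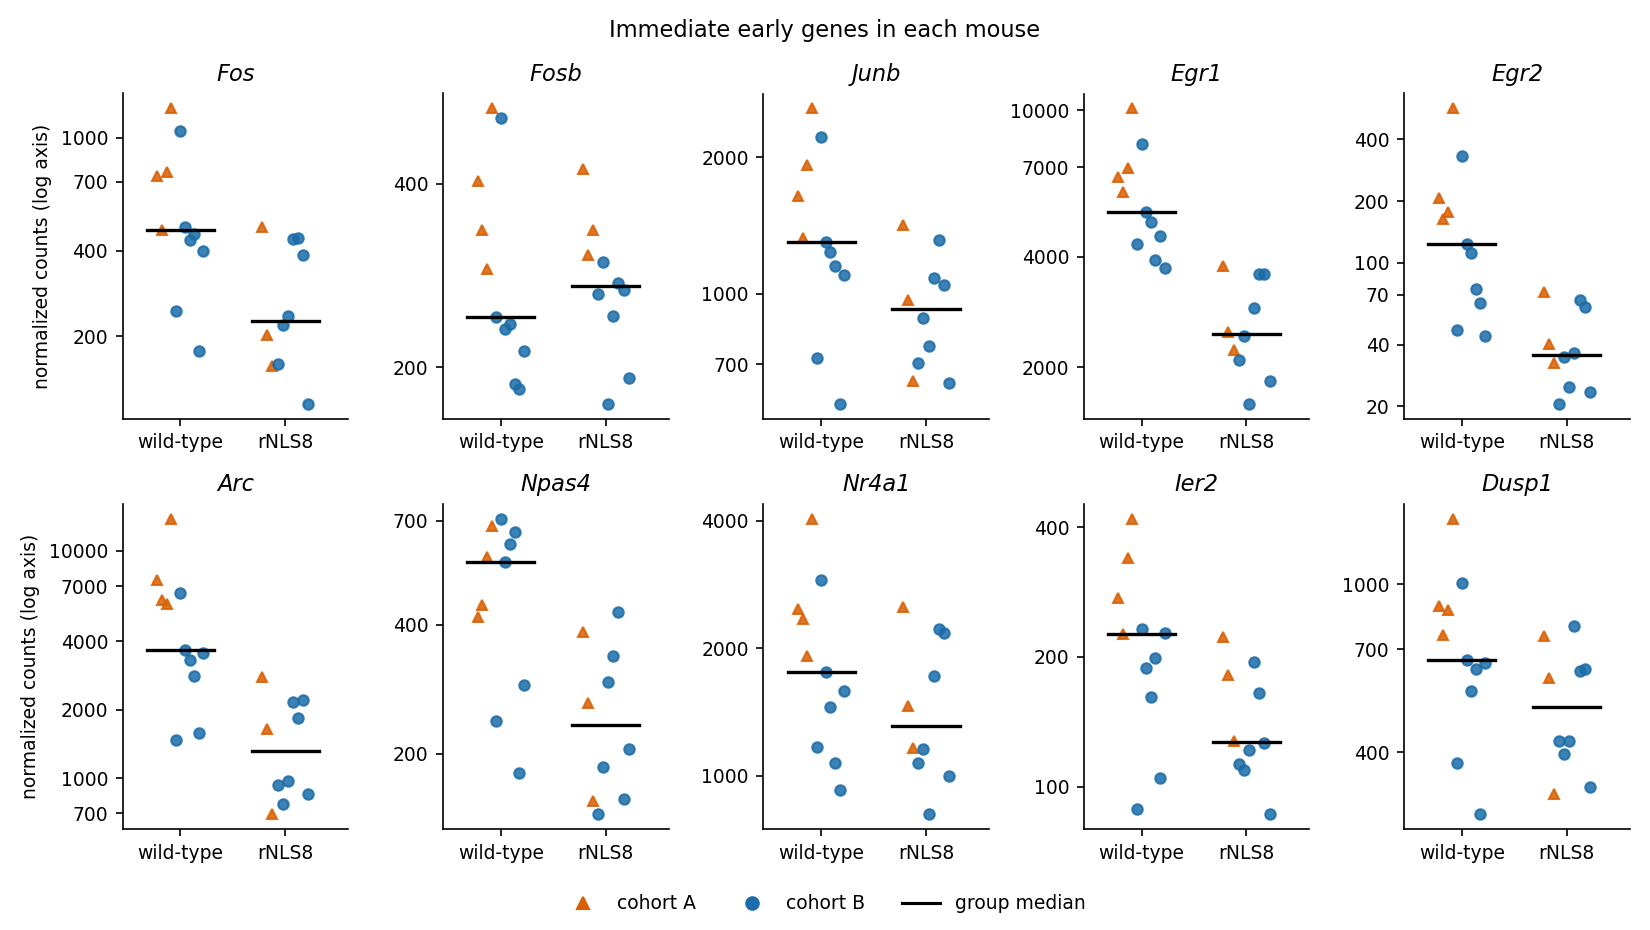
Normalized counts of the 10 genes in each mouse on log axes, with wild-type mice on the left and rNLS8 mice on the right of each panel, cohort A as triangles, cohort B as circles and the median of each genotype as a line. Egr1 separates the genotypes apart from a single overlapping pair, whereas the medians of Fosb are 242 in wild-type and 271 in rNLS8 mice.

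Among the zinc finger transcription factors of the EGR family, Egr1 had normalized counts (counts scaled to a common library size) between 3728 and 10123 in wild-type mice, with a median of 5281. In rNLS8 mice it had between 1587 and 3764, with a median of 2462. The ranges touched at a single pair, rNLS8 mouse T60303 and wild-type mouse T_70264, and all other rNLS8 mice lay below every wild-type mouse. The means were 5871 ± 1962 (SD, n = 11) and 2651 ± 777 (SD, n = 10), and the log2 fold change was -1.10 (SE 0.163, adjusted p = 6.44e-06, edgeR's quasi-likelihood test). Egr2, on chromosome 10 from 67534469 to 67542188, ranged from 44.3 to 568 in wild-type mice with a median of 124. Its range was 20.5 to 71.8 in rNLS8 mice with a median of 35.6. In 7 of 10 rNLS8 mice it was under the whole wild-type range, and in all 10 under the wild-type median. Egr2 fell by 1.90 on the log2 scale (SE 0.362, adjusted p = 0.000134). Its absolute level is uncertain, because the table holds a further row of the same symbol with 2227 counts in total against 2270, and that row changed by -1.87 (SE 0.359, adjusted p = 0.000150). Across all genes, 3.8% had every rNLS8 mouse below every wild-type mouse, and 0 of the 10 genes did.

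Arc, on chromosome 15 from 74669081 to 74672570, encodes a protein of dendrites and synapses that promotes internalization of AMPA receptors. It ranged from 1473 to 13892 normalized counts in wild-type mice with a median of 3666. In rNLS8 mice it ranged from 692 to 2783 with a median of 1309. There were 9 wild-type mice that exceeded every rNLS8 mouse, and the 2 others, T_69523 and T_70262 of cohort B, lay below 5 of the rNLS8 mice. The means were 5111 ± 3536 (SD, n = 11) and 1485 ± 740 (SD, n = 10), a log2 fold change of -1.57 (SE 0.301, adjusted p = 0.000147). Npas4, on chromosome 19 from 4984353 to 5003439, encodes a bHLH-PAS transcription factor that depolarization and calcium entry induce in neurons. It ranged from 180 to 708 in wild-type mice with a median of 562 and from 144 to 427 in rNLS8 mice with a median of 234. Every rNLS8 mouse was below the wild-type median, and 3 lay under the lowest wild-type mouse. Npas4 fell by 0.92 on the log2 scale (SE 0.237, adjusted p = 0.00261).

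The AP-1 subunits behaved unequally. Fos, on chromosome 12 from 85473890 to 85477274, ranged from 177 to 1269 normalized counts in wild-type mice with a median of 473 and from 116 to 484 in rNLS8 mice with a median of 227. Wild-type mice T61345 and T_69527 stood above the rest, and 3 rNLS8 mice lay below every wild-type mouse. Fos fell by 0.97 on the log2 scale (SE 0.297, adjusted p = 0.00997). Junb, a dimerization partner of Fos on chromosome 8 from 84976909 to 84978748, ranged from 572 to 2560 in wild-type mice with a median of 1304 and from 636 to 1419 in rNLS8 mice with a median of 928. The lowest mouse of all was a wild-type mouse, T_70262, and at the upper end 4 wild-type mice exceeded every rNLS8 mouse. Junb fell by 0.54 on the log2 scale (SE 0.197, adjusted p = 0.0296), a call that was lost without either of wild-type mice T_69527 (adjusted p = 0.0891) and T61345 (0.0543) or any of rNLS8 mice T61342 (0.0671), T61340 (0.0546) and T_70267 (0.0505). Junb overlaps Prdx2 on the opposite strand, and whether the counting used strand is not given.

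Fosb, on chromosome 7 from 19302696 to 19310118, encodes a Fos paralog and also a truncated, stable isoform that builds up under repeated stimulation. The counts are per gene and do not separate these isoforms. Fosb ranged from 184 to 532 normalized counts in wild-type mice with a median of 242 and from 174 to 423 in rNLS8 mice with a median of 271. The genotypes overlapped throughout, and 2 of 10 rNLS8 mice were below the wild-type median. The means were 306 ± 125 (SD, n = 11) and 278 ± 71.0 (SD, n = 10). The log2 fold change was -0.10, with a 95% interval from -0.41 to 0.22 (adjusted p = 0.646), so a decrease of the size seen in Fos or Egr1 lay outside the interval.

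The remaining genes encode a nuclear receptor, a small nuclear protein and a phosphatase. Nr4a1, an orphan nuclear receptor on chromosome 15 from 101253902 to 101274795, ranged from 925 to 4045 normalized counts in wild-type mice with a median of 1754 and from 812 to 2499 in rNLS8 mice with a median of 1311. Its log2 fold change was -0.28, with a 95% interval from -0.73 to 0.17 (adjusted p = 0.310). Ier2, on chromosome 8 from 84661331 to 84662852, ranged from 88.7 to 419 in wild-type mice with a median of 226 and from 86.2 to 222 in rNLS8 mice with a median of 127. All 10 rNLS8 mice were below the wild-type median of Ier2, which fell by 0.54 on the log2 scale (SE 0.174, adjusted p = 0.0134). Dusp1, a MAP kinase phosphatase that limits the signaling that induces it, lies on chromosome 17 from 26505591 to 26508472 and overlaps Ergic1 and a pseudogene on the opposite strand and an intronic transcript and a pseudogene on its own strand, so its count is uncertain. It ranged from 285 to 1428 in wild-type mice with a median of 661 and from 319 to 797 in rNLS8 mice with a median of 513. The log2 fold change was -0.40, with a 95% interval from -0.82 to 0.02 (adjusted p = 0.113). Without rNLS8 mouse T_70252 or wild-type mouse T_70262, Dusp1 passed the threshold (adjusted p = 0.0442 and 0.0370).

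Levels of different genes were compared as CPM per kilobase of the principal GENCODE transcript. In wild-type mice, Arc at 78.4 ± 54.2 (SD, n = 11) and Egr1 at 61.3 ± 20.5 were the most abundant. Nr4a1 (37.2 ± 17.5) and Junb (37.1 ± 15.7) came next with nearly equal means. Dusp1 (17.4 ± 7.38), Fos (13.1 ± 7.43), Ier2 (6.89 ± 2.95), Npas4 (6.32 ± 2.41), Fosb (3.79 ± 1.55) and Egr2 (2.75 ± 2.46) followed. The ranges of mean ± SD overlapped between every gene and its neighbor in this order. In rNLS8 mice, the mean levels of Nr4a1 (28.9 ± 11.2, SD, n = 10), Egr1 (27.7 ± 8.12), Junb (24.5 ± 7.07) and Arc (22.8 ± 11.3) lay within 1 SD of each other. Egr2 had 0.652 ± 0.294. Its level and its place in both orders are uncertain because of the further row of that symbol.

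**Figure D2:**
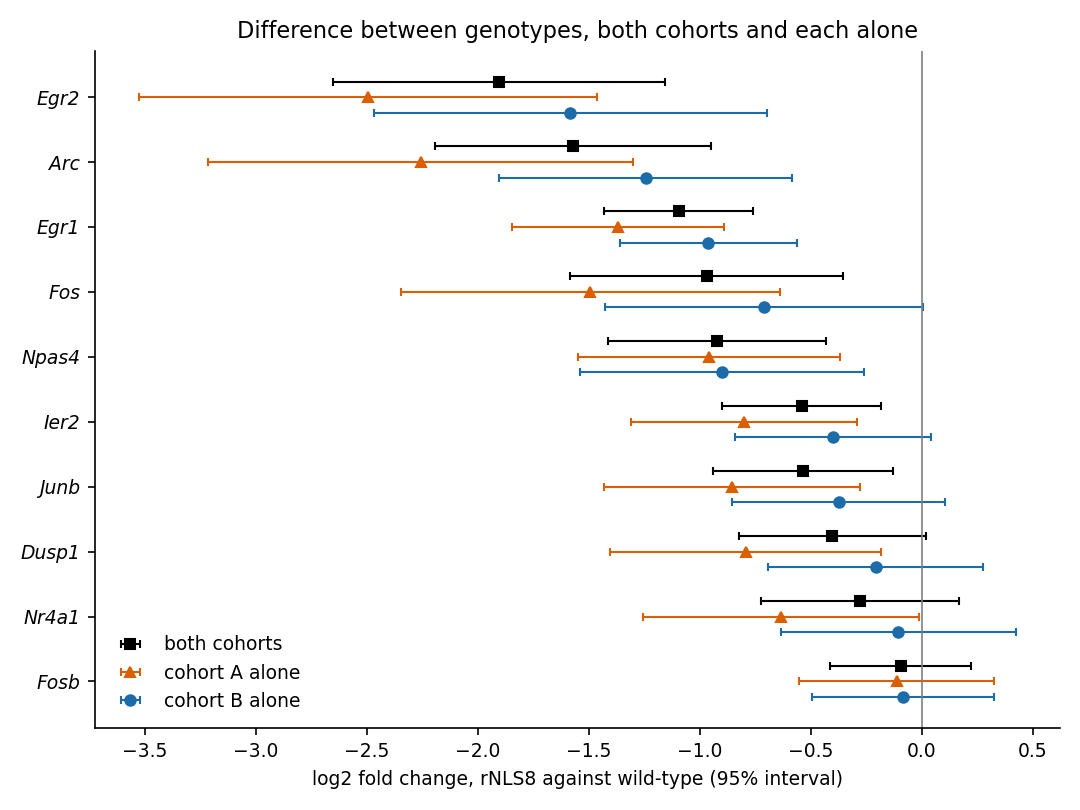
Log2 fold change of rNLS8 against wild-type mice for each gene, with 95% intervals, for both cohorts together (squares), cohort A alone (triangles) and cohort B alone (circles). Egr2, Arc, Egr1 and Npas4 have intervals below 0 in all 3 fits, and Fosb lies near 0 in all 3.

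Within cohort A, 6 of the 10 genes were lower in rNLS8 mice, namely Egr2, Arc, Egr1, Fos, Npas4 and Ier2, compared with 4.83% of all genes tested in that cohort, and 0 were higher, compared with 6.99%. The log2 fold changes were -2.50 for Egr2, -2.26 for Arc, -1.49 for Fos and -1.37 for Egr1, with adjusted p = 0.00704, 0.00798, 0.0310 and 0.00295. In this cohort all 3 rNLS8 mice lay below all 4 wild-type mice in 6 genes, which held for 12.4% of all genes. Arc ranged from 692 to 2783 normalized counts in these rNLS8 mice and from 5849 to 13892 in the wild-type mice. For Ier2 and Dusp1 the gap was small, with a highest rNLS8 mouse of 222 and 754 and a lowest wild-type mouse of 226 and 757.

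Within cohort B, Egr1, Egr2, Arc and Npas4 were lower, compared with 19.8% of all genes tested there, and 0 were higher, compared with 19.3%. Their log2 fold changes were -0.96, -1.58, -1.24 and -0.90, with adjusted p = 0.000523, 0.00580, 0.00405 and 0.0250. Fos had -0.71 (adjusted p = 0.110), Ier2 -0.40 (0.142) and Junb -0.38 (0.212) in this cohort. Egr1 was the gene in which every rNLS8 mouse of cohort B lay below every wild-type mouse, with 3596 against 3728 normalized counts at the closest pair, and 8.1% of all genes separated in this way. In cohort B, wild-type mice T_70262 and T_69523 reached into the rNLS8 range for all 9 other genes.

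All 10 log2 fold changes were lower in cohort A than in cohort B, but the difference between cohorts was not established. The genotype by cohort interaction was not past the threshold for any of the 10 genes with edgeR (adjusted p from 0.877 to 0.988, 0 genes at an unadjusted p under 0.05) or with DESeq2 (0 genes). It was largest for Arc at -1.05 (unadjusted p = 0.0890). Over all genes, 0% passed with edgeR, and 1030 had an unadjusted p under 0.05. The level itself was higher in cohort A than in cohort B for Arc (log2 difference 0.91, adjusted p = 0.0317), Ier2 (0.69, 0.00771) and Fosb (0.57, 0.0126), compared with 12.6% of all genes, and was lower in 0 of the 10, compared with 10.8%. The median difference was 0.51 over the 10 genes and -0.002 over all genes. Leaving out single mice, this number varied between 2 and 8, with 7 genes without wild-type mouse T_69527, 8 without rNLS8 mouse T61342, 5 without rNLS8 mouse T_70261 or T_70263, and 2 without wild-type mouse T61345 or T61331 or rNLS8 mouse T60303.

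These genes differed more between mice of the same genotype and cohort than most genes did. Their residual SD after subtraction of the mean of each genotype and cohort was 0.80 log2 units for Egr2, 0.76 for Fos, 0.73 for Arc and 0.65 for Npas4, and it was lowest for Egr1 (0.40) and Fosb (0.38). The median was 0.53 for the 10 genes and 0.17 for all genes tested. Individual mice stood out across the set. Wild-type mouse T61345 of cohort A had the highest level of its genotype in 9 of the 10 genes, and rNLS8 mouse T60303, also of cohort A, in 8. Wild-type mouse T_70262 had the lowest level of its genotype in 6. The highest wild-type mouse of cohort B was T_69527 in all 10 genes. Without wild-type mice T61345 and T_69527, an alternative chosen after the data had been seen, 4 of the 10 genes were lower, compared with 20.2% of all genes in that fit (22.1% were higher), namely Egr1 (-0.92), Egr2 (-1.32), Arc (-1.27) and Npas4 (-0.78). Fos (-0.63, adjusted p = 0.0621), Ier2 (-0.42, 0.0575) and Junb (-0.31, 0.157) were no longer past the threshold. Without rNLS8 mice T61340 and T60303, a further alternative of this kind, 6 of the 10 were lower and 0 higher, compared with 20.3% and 21.4% of all genes, and Junb did not pass (adjusted p = 0.0589).

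**Figure D3:**
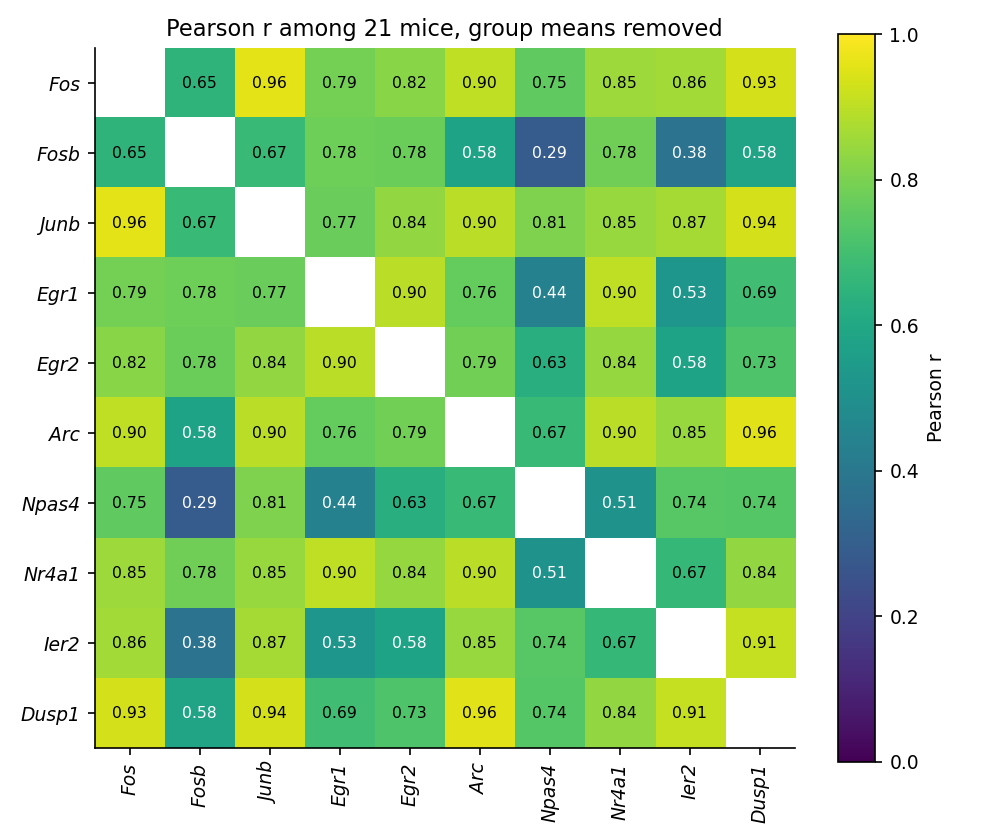
Pearson correlation of log2 CPM between each pair of genes over 21 mice after subtraction of the mean of each genotype and cohort, with the color scale from 0 to 1. Fos, Junb, Arc and Dusp1 form the block of highest values, and the row of Fosb and that of Npas4 are the weakest, with 0.29 between them.

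Mice that were high for one gene were mostly high for the others. Over the 45 pairs of genes, Pearson's r of the residuals in 21 mice had a median of 0.78, and 42 pairs passed an adjusted threshold of 0.05, as did 42 pairs by Spearman's rho (100000 permutations of mice within genotype and cohort, two-sided, adjusted over the 45 pairs). The strongest pairs were Fos with Junb (r = 0.96, rho = 0.97, permutation p = 1e-05 each, the smallest possible) and Arc with Dusp1 (r = 0.96, rho = 0.96, permutation p = 1e-05 each). Without the 2 mice farthest from the median of the first gene these were 0.94 each, and the median over all pairs was 0.71. Fosb with Npas4 was the weakest pair (r = 0.29, rho = 0.22), followed by Fosb with Ier2 (r = 0.38) and Egr1 with Npas4 (r = 0.44). Against the mean of the 9 other genes, Junb had an r of 0.97 and Fos of 0.96, whereas Npas4 had 0.70 and Fosb 0.68. The genes of a mouse share the library and its preparation, so these correlations are not independent of each other. Pairs of other genes were not tested, so how common such correlations are over all genes is not known.

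To compare the genes with each other within a library, the 45 ratios between them were tested between genotypes by exact permutation within cohorts (120120 arrangements, two-sided, adjusted over the 45), a comparison chosen after the levels had been seen. The ratio differed for 30 pairs. Ratios between other genes were not tested, and 44.7% of all genes tested differed between genotypes in either direction. Whether 30 of 45 is more than other sets of genes would give is therefore not known. Relative to Fosb, Egr1 was lower in every rNLS8 mouse than in any wild-type mouse. The log2 ratio of Fosb to Egr1 was between -4.62 and -3.98 in wild-type and between -3.74 and -2.73 in rNLS8 mice, a difference of 1.07 (exact permutation p = 8.3e-06, the smallest possible, adjusted p = 9.4e-05). Arc fell relative to Nr4a1, with log2 ratios from 0.34 to 1.78 in wild-type and from -0.75 to 0.33 in rNLS8 mice and a difference of -1.31 (exact permutation, adjusted p = 9.4e-05). It also fell relative to Dusp1, the gene it followed most closely between mice, by 1.21 (exact permutation, adjusted p = 9.4e-05), and Egr1 fell relative to Nr4a1 by 0.82 (exact permutation, adjusted p = 9.4e-05).

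**Figure D4:**
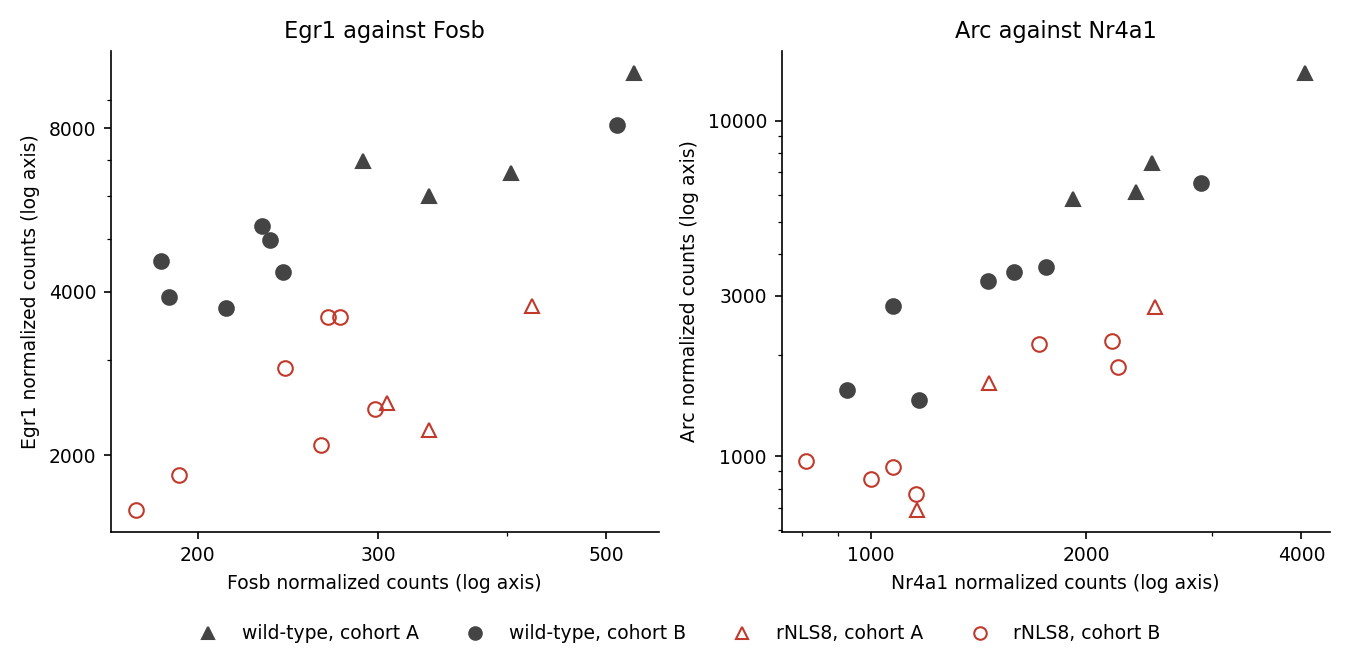
Normalized counts of Egr1 against Fosb (left) and of Arc against Nr4a1 (right) on log axes, with 1 point per mouse, wild-type mice filled, rNLS8 mice open, cohort A as triangles and cohort B as circles. In both panels the rNLS8 mice lie below the wild-type mice at a like level of the gene on the horizontal axis.

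Within AP-1, Fos fell relative to Fosb by 0.93 (exact permutation, adjusted p = 0.00799) and relative to Junb by 0.48 (exact permutation, adjusted p = 0.00674). The log2 ratio of Egr2 to Arc differed by -0.09 and did not pass the test (exact permutation, adjusted p = 0.715). The ratios of Fos to Egr1 (0.14, adjusted p = 0.579), Fos to Npas4 (-0.07, 0.776) and Junb to Ier2 (0.02, 0.887) also did not pass the exact permutation test.

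Relative to the summed counts of the 6 neuron markers, which was lower in every rNLS8 than in any wild-type mouse, each difference is higher by construction. Most weight in the sum lay with the markers that fell, Snap25, Syt1 and Map2, with wild-type means of 47235, 31422 and 26119 normalized counts. Eno2, Rbfox3 and Tubb3, which did not pass the test, had 17317, 5825 and 5718. Ratios to the sum thus follow mainly those higher transcripts and are not values per neuron. Among 10 ratios to this sum, the log2 difference between rNLS8 and wild-type mice was -1.24 for Egr2 (exact permutation within cohorts, unadjusted p = 0.00349), -1.15 for Arc (p = 0.00376) and -0.66 for Egr1 (p = 0.00283). It was 0.41 for Fosb (exact permutation, unadjusted p = 0.0307), which did not pass 0.05 after adjustment over these ratios. Fos differed by -0.52 and Npas4 by -0.45, with unadjusted exact permutation p = 0.154 and 0.138, and for Junb, Nr4a1, Ier2 and Dusp1 the difference was between -0.06 and 0.16 and did not pass the test. Of the markers of striatum, which lies beneath the cortex, 1 of 5 was lower (Drd1). All 5 had negative log2 fold changes, with a median of -0.40, and the median was -0.89 in cohort A and -0.13 in cohort B, where 0 passed the test in either cohort alone. Their summed normalized counts overlapped, with 3352 to 15923 in rNLS8 and 3603 to 19307 in wild-type mice. Red blood cell markers had medians of -0.98 in cohort A and -0.32 in cohort B. The medians in cohorts A and B were -1.57 and 0.81 for choroid plexus and -1.02 and 0.25 for dentate gyrus markers. No marker of these 3 lists passed the test over both cohorts. Of the inhibitory neuron markers 3 of 3 were lower, and of the astrocyte markers 4 of 6 were lower and 1, Gfap, was higher by 1.03, against 21.7% lower and 23% higher over all genes. The part of these markers in the result was not tested.

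Of 39 other immediate early genes tested, 17 were lower, 7 were higher and 15 did not pass the test, against a background of 21.7% lower and 23% higher, with a median log2 fold change of -0.26. Egr3, a further EGR factor, fell from 3167 ± 619 (SD, n = 11) to 1854 ± 394 normalized counts (SD, n = 10), by 0.74 on the log2 scale (SE 0.075, adjusted p = 1.74e-08). Ccn1, a matricellular protein, fell by 0.73 (adjusted p = 0.0173), Ptgs2, the inducible cyclooxygenase, by 0.69 (2.01e-05) and Rasl11a by 0.65 (0.00191). Atf3, a transcription factor of the integrated stress response and of injured neurons, rose from 18.3 ± 6.91 to 117 ± 57.2 normalized counts, by 2.63 on the log2 scale (SE 0.232, adjusted p = 2.35e-09). Gadd45g, a stress sensor, rose by 0.69 (4.44e-06), Ier3 by 0.55 (3.26e-05) and Maff, a small MAF factor, by 0.48 (0.00786). Ier3 has a further row of the same symbol, so its level is uncertain.

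The MAP kinase phosphatases other than Dusp1 were lower for 6 of 9 genes, with 0 higher and a median log2 fold change of -0.43, against the same background of 21.7% lower and 23% higher. Dusp6, which dephosphorylates ERK in the cytoplasm and is itself induced by ERK, fell from 1154 ± 272 (SD, n = 11) to 583 ± 113 normalized counts (SD, n = 10), by 0.96 on the log2 scale (SE 0.114, adjusted p = 2.45e-07). The nuclear phosphatases Dusp4 and Dusp5 fell by 0.92 (adjusted p = 1.67e-06) and 0.71 (0.000229), and Dusp14 fell by 0.50 (4.01e-07). Of 6 feedback inhibitors of EGR factors and of ERK signaling, Spry2 (-0.31, adjusted p = 7.51e-06) and Spred1 (-0.19, 0.0279) were lower, and 4 did not pass the test.

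Among 47 genes of the pathway from calcium entry to CREB, serum response factor and MEF2, 23 were lower, 9 were higher and 15 did not pass the test, compared with 21.7% and 23% of all genes, with a median log2 fold change of -0.10. Camkk2, the kinase that activates CaMKIV, fell from 5844 ± 470 (SD, n = 11) to 2540 ± 175 normalized counts (SD, n = 10), by 1.20 on the log2 scale (SE 0.050, adjusted p = 1.23e-14). Camk4, a nuclear kinase of CREB, fell by 1.07 (adjusted p = 1.38e-11). The calcineurin catalytic subunits Ppp3cb and Ppp3ca fell by 0.86 (1.61e-11) and 0.76 (4.22e-11). Elk1, a partner of serum response factor, rose by 0.50 (adjusted p = 5.94e-10), Crtc1, a coactivator of CREB, by 0.38 (1.82e-07), and the kinases Rps6ka4 and Rps6ka1 by 0.28 (3.57e-05) and 0.27 (0.000215).

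**Figure D5:**
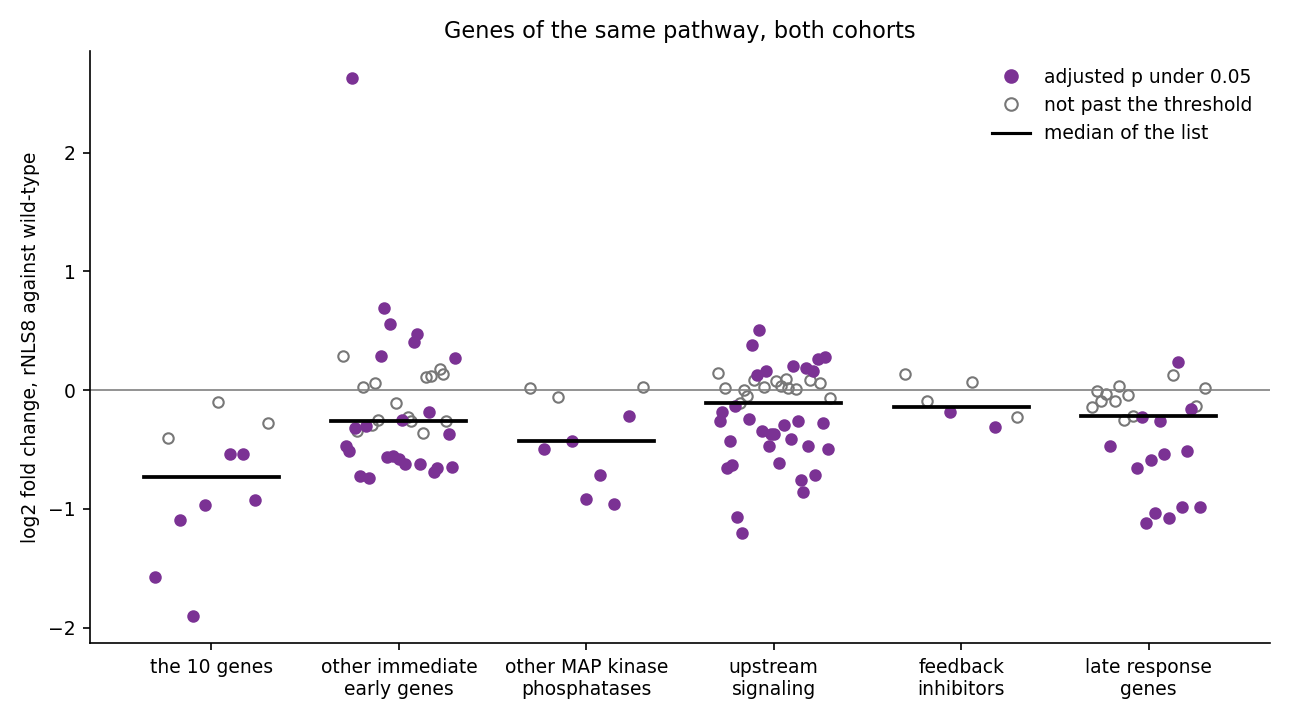
Log2 fold change of rNLS8 against wild-type mice over both cohorts for each gene tested in 6 lists, with 1 point per gene, filled where the adjusted p was under 0.05, and the median of each list as a line. The medians lie between -0.73 for the 10 genes and -0.10 for upstream signaling, and the single point above 2 is Atf3.

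Of 26 late response genes, which immediate early factors can induce in neurons, 13 were lower, 1 was higher and 12 did not pass the test, compared with 21.7% lower and 23% higher over all genes, with a median log2 fold change of -0.22. Nptx2, a secreted pentraxin that clusters AMPA receptors, fell from 959 ± 180 (SD, n = 11) to 437 ± 121 normalized counts (SD, n = 10), by 1.12 on the log2 scale (SE 0.091, adjusted p = 5.71e-10). Nrn1, which encodes neuritin, fell by 1.03 (adjusted p = 1.61e-11). The neuropeptide precursors Penk and Tac1, abundant in striatal projection neurons, fell by 1.08 (SE 0.294, adjusted p = 0.00436) and 0.98 (SE 0.258, adjusted p = 0.00311), with a wide spread in wild-type mice of 3838 ± 2208 and 710 ± 449 normalized counts. Plat, tissue plasminogen activator, rose by 0.23 (0.000399).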

How the data were processed

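Poly(A) RNA of tissue labeled neocortex was sequenced with paired reads. The authors deposited a table of raw counts, whole numbers for each gene symbol without scaling. Per the labels' processing notes the build was mm10 and the tools included HISAT2, Bowtie2 and RSEM, without a stated role or version. Whether strand was used, and which annotation, is not given in the sources used here. The table held 48474 rows, of which 2553 were further copies of a symbol with 4.11% of counts. Every sample column was used, and genotype, cohort (batch in the labels, cohort in the series' design text) and mouse number came from the labels.

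The analysis used edgeR 4.0.16 under R 4.3.3. Genes with low counts were removed by filterByExpr (minimum count 10, minimum total 15), and the rest were scaled by TMM and tested with the quasi-likelihood test on genotype and cohort, with Benjamini-Hochberg adjustment over all 18248 genes tested and a threshold of 0.05. Standard errors were derived from the F statistic, and 95% intervals from them. The study's methods name DESeq2 without a covariate, which was run as an alternative (version 1.42.0). A normalized count is the count rescaled from the effective size of its library to the mean effective size. Correlations used log2 CPM with a prior count of 2, and ratios used counts plus 0.5 (scipy 1.17.1). The procedures were tested on simulated data. Without molecular identifiers, the limit given for 3 counts reflects counting error alone. The total counts, 20700912 to 22263809 per mouse, set the counting error of low genes such as Egr2.

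All 10 genes are named. From each related list, up to 4 genes per direction are named, namely those past the threshold that changed most, as are the 8 genes most similar to the mean of the 10 by residual correlation with at least 50 normalized counts. The 10 genes, the lists and the tests were chosen with earlier results of these data known. Alternatives were DESeq2, no cohort term, other scalings and filters, copy rows left out, each cohort alone, and leaving out each mouse in turn. Leaving out pairs of mice, the ratios and the marker-scaled values were added after the data had been seen. Positions and promoter sequences were taken from RefSeq on GRCm38.p6 and transcript lengths from GENCODE, which may differ from the annotation used for counting.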

Additional observations from a re-analysis of the deposited data

How the results depend on the processing

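Egr1, Egr2, Arc and Npas4 were lower in rNLS8 mice in every alternative fit of the genotype test, although the ratio of Npas4 to the neuron markers did not pass (-0.45, exact permutation, unadjusted p = 0.138), and the number of the 10 genes lower was 6 to 8 when single mice were left out, with 0 higher throughout. It was 4 in cohort B alone and 4 without wild-type mice T61345 and T_69527. Cohort A alone, with 7 mice, gave 897 lower and 1298 higher genes over the whole table, against 3759 to 4098 lower and 4020 to 4265 higher when single mice were left out. The call of Junb was lost in 11 alternatives and kept in 23. Its adjusted p was 0.0506 for DESeq2 with cohort, 0.0633 with library size only and 0.0566 in cohort A alone. It was 0.0589 without rNLS8 mice T61340 and T60303. In cohort B alone it was 0.212, and without wild-type mice T61345 and T_69527 it was 0.157. Fosb changed sign without wild-type mouse T_69527, with 0.071 on the log2 scale and a range of -0.14 to 0.071 over single mice left out, and was 0.14 without both wild-type mice. The interaction changed sign for Fosb (-0.32 to 0.12) and Npas4 (-0.45 to 0.18) when single mice were left out, and the number of genes higher in cohort A ranged from 2 to 8. The cause of these shifts was not tested. The number of correlated pairs stayed within 1.5 times of 42 with a prior count of 0.5 and with library size only. No paired analysis was possible because each mouse number occurs in a single genotype. With 3 rNLS8 mice in cohort A, differences between cohorts were estimated with little precision. Egr2 had 20.5 to 71.8 normalized counts in rNLS8 mice, and how far such low counts limit its precision was not tested. Its residual SD was 0.80 log2 units, and that of Fos, with more counts, was 0.76.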

Other observations

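Genes outside the 10 followed them between mice. Over 14569 further genes with at least 50 normalized counts, the residual log2 CPM of Btg2 had the highest Pearson r with the mean of the 10 genes over 21 mice, at 0.91. Btg2, an antiproliferative gene that p53 and growth factors induce, had a log2 fold change of -0.34 (SE 0.195, adjusted p = 0.164, edgeR's quasi-likelihood test). It was followed by Trib1, a pseudokinase, with r = 0.86, by the ERK phosphatase Dusp6 with 0.85, by the deubiquitinase Otud1 with 0.84 and by Ccn1 with 0.83. These 4 genes were all lower in rNLS8 mice, Trib1 by 0.64 (adjusted p = 0.000211) and Otud1 by 0.38 (0.000562).

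Likeness between mice and the direction between genotypes were separate for the others. Cd14, the lipopolysaccharide coreceptor of myeloid cells, had an r of 0.79 with the 10 genes and was higher in rNLS8 mice by 0.56 on the log2 scale (SE 0.116, adjusted p = 0.000326). Irf2bp2 had an r of 0.79 and a log2 fold change of -0.04 (adjusted p = 0.673). Samd4b had an r of 0.78 and was higher by 0.67 (SE 0.047, adjusted p = 4.40e-11). These correlations are given as a description, since all genes of a mouse share its library.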
